A study of Mus musculus with 8 samples.

Results

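The caudate putamen libraries titled 21mo were compared with those titled 3mo, over all of their nuclei. The region gave 4 of the 8 libraries of the series, 2 at each age, and 61767 of its 108519 nuclei with at least 500 genes detected. Members were chosen by region and age in the titles and by that gene minimum alone, and the library was the replicate. In each library, nuclei of a male and a female C57BL/6JN mouse of that age were mixed in equal numbers. The nuclei came from punches of the left hemisphere and were sorted after Hoechst staining before capture on the 10x Genomics v3.1 platform. No mouse carried a stated transgene or treatment, so that the groups differ by label only in age, 21 against 3 months. The animals behind a library are not named, so p-values measure only the spread between these libraries.

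The caudate putamen is the dorsal striatum, which receives cortical glutamate and midbrain dopamine input and takes part in movement and habit learning. Most of its neurons are GABAergic medium spiny neurons. Those of the direct pathway carry the D1 dopamine receptor with substance P and dynorphin, and those of the indirect pathway carry the D2 dopamine receptor and an adenosine receptor with enkephalin. RNA in nuclei is rich in unspliced transcripts, so long genes with many introns weigh more in it than in whole-cell RNA. Complement, glial and myelin genes are often followed in studies of brain ageing.

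Counts of unique molecular identifiers (UMIs) were summed over the nuclei of each library and are given as CPM, the count scaled to a common library total after the TMM normalization of edgeR. Where 4 values follow each other, they are those of 3-month libraries 1 and 2 and then of 21-month libraries 1 and 2. The libraries held 12352, 16159, 14567 and 18689 nuclei and 141523627, 214112996, 141574271 and 156069790 UMIs. Median UMIs per nucleus were 10152, 11999, 8119 and 7314, so both 21-month libraries were shallower per nucleus than both 3-month libraries. Pairs of the 4 libraries shared 52 to 85 cell barcodes, at most 0.584% of the smaller library. Among nuclei with Xist or Y-linked UMIs but not both, 54.2%, 61.9%, 61.1% and 63.7% had Xist. Nuclei with both were 17.8%, 21.5%, 14.9% and 18.8% of all nuclei, so these UMIs do not sort nuclei by sex without error. Summed Xist was 446, 621, 649 and 656 CPM. Kdm5d, Eif2s3y, Uty and Ddx3y together gave 169, 142, 130 and 129 CPM, highest in 3-month library 1.

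Genes typical of the region were abundant, though no other region was compared. The 10 medium spiny neuron markers summed to 10008, 11418, 9755 and 11946 CPM, led by Pde10a, the striatal phosphodiesterase, at 3617, 4170, 3444 and 4494 CPM. Markers of neighbouring tissue differed between libraries of the same age. The 4 choroid plexus markers summed to 113, 0.799, 75.7 and 0.613 CPM. Of these, Ttr, the transthyretin gene of choroid epithelium, stood at 104, 0.0392, 69.3 and 0.0702 CPM, high in library 1 of each age. Ependymal markers were also higher in library 1 of each age, at 5.91, 0.912, 3.21 and 1.14 CPM. Slc17a7, the vesicular glutamate transporter of cortical neurons, stood at 0.14, 1.12, 0.594 and 3.84 CPM and was higher in library 2 of each age. The 6 cortical markers summed to 85.0, 56.8, 121 and 92.1 CPM, higher in library 1 of each age. Most of that sum was Rorb, at 82.8, 50.3, 117 and 76.1 CPM, and the other 5 markers were higher in library 2 of each age. The first principal component of the 4 libraries (49.1% of the variance) separated libraries 1 from libraries 2, and the second (38.6%) separated the ages.

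No gene passed an adjusted p of 0.05 in the region-wide comparison, so the differences below are values and not calls. The edgeR quasi-likelihood test with Benjamini-Hochberg adjustment called 0 of 21835 genes (0%), and its smallest adjusted p was 0.0957. At an unadjusted p under 0.05 there were 4040 genes (18.5%), 1843 higher (8.44%) and 2197 lower (10.1%) at 21 months. The DESeq2 Wald test on the same sums called 1244 genes (5.70%), 550 higher (2.52%) and 694 lower (3.18%), and gave no adjusted p for 4234. The 21-month libraries did not overlap the 3-month libraries in 11305 genes (51.8%), of which 5465 (25.0%) lay above and 5840 (26.7%) below. The median log2 fold change was -0.0034, and 61.6% of genes lay within 0.25 of 0. Scaled by library totals without the TMM factor, 61.4% of the genes at unadjusted p under 0.05 were higher, against 45.6% with it.

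**Figure D1:**
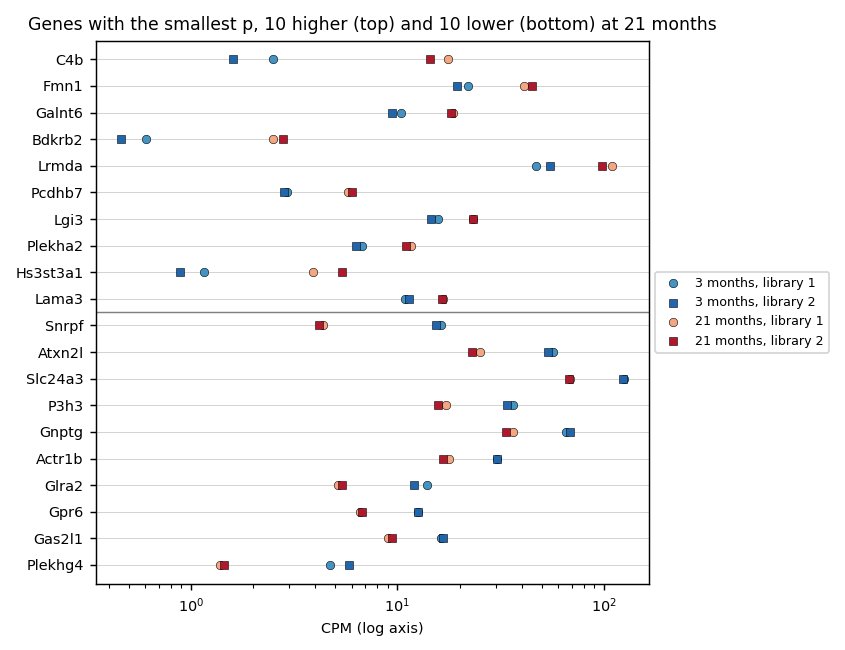
CPM on a log axis of the 10 genes a direction with the smallest p in the 4 libraries; blue points are 3 months and red points 21 months, circles library 1 and squares library 2. In all 20 genes the points of one age lie apart from those of the other.

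The gene with the smallest p was Snrpf, which encodes the Sm protein F of the spliceosomal core. It is on the minus strand of GRCm38 at chr10:93583029-93589706. Snrpf stood at 16.2, 15.3, 4.37 and 4.18 CPM, a log2 fold change of -1.88 with a standard error (SE) of 0.083 and an edgeR adjusted p of 0.0957. Both 21-month libraries lay far below both 3-month libraries and close to each other. The difference was as large in nuclei with Xist UMIs only (-1.83) and in nuclei with Y-linked UMIs only (-1.85). With nuclei thinned to 2000 UMIs it was -1.96. Thinning left out the nuclei below 2000 UMIs, which were 530 of 12352, 651 of 16159, 899 of 14567 and 1630 of 18689. The part of that loss in the thinned values was not tested.

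Atxn2l, a relative of the RNA-binding ataxin-2, followed with 56.6, 53.9, 25.1 and 23.1 CPM (log2 -1.20, SE 0.074). Slc24a3, a potassium-dependent sodium and calcium exchanger, stood at 124.6, 123.3, 68.2 and 67.6 CPM (log2 -0.87, SE 0.059). Gpr6, an orphan receptor of indirect-pathway neurons, stood at 12.6, 12.6, 6.59 and 6.70 CPM (log2 -0.92, SE 0.075). In each of these genes the libraries of an age differed by far less than the ages did. Glra2, the glycine receptor alpha 2 subunit, was at 13.9, 12.03, 5.17 and 5.37 CPM (log2 -1.30, SE 0.10). Gnptg, a subunit of the enzyme that tags lysosomal hydrolases, was at 65.8, 68.3, 36.3 and 33.7 CPM (log2 -0.94, SE 0.069). The other 4 lower genes were P3h3, a collagen prolyl hydroxylase (-1.09), Actr1b, a dynactin subunit (-0.83), Gas2l1, a cytoskeletal linker (-0.83), and Plekhg4, a guanine nucleotide exchange factor (-1.90). The 10 lower genes had edgeR adjusted p-values of 0.0957 to 0.102.

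On the higher side C4b, which encodes complement component C4, led. It is on the minus strand at chr17:34728380-34743882 and stood at 2.51, 1.59, 17.7 and 14.3 CPM, a log2 fold change of 2.97 (SE 0.26, edgeR adjusted p = 0.102). Its reads can be shared with the near-identical C4a, so the split between them is uncertain. Bdkrb2, the bradykinin B2 receptor, rested on low values of 0.608, 0.461, 2.49 and 2.80 CPM (log2 2.31, SE 0.21). Hs3st3a1, which sulfates heparan sulfate, stood at 1.16, 0.888, 3.88 and 5.41 CPM (log2 2.19, SE 0.24). All 3 genes were low in both 3-month libraries and did not overlap between ages. Fmn1, an actin-nucleating formin, was at 22.03, 19.5, 41.0 and 44.7 CPM (log2 1.04, SE 0.091), and Lrmda at 46.7, 54.6, 109.5 and 98.0 CPM (log2 1.03, SE 0.11). The other genes were Pcdhb7, a clustered protocadherin (1.04), Galnt6, a mucin-type glycosylation enzyme (0.89), Plekha2 (0.79), Lgi3, a secreted LGI protein (0.61), and Lama3, a laminin chain (0.57). In nuclei thinned to 2000 UMIs Plekha2 gave 0.42, Galnt6 0.60 and Lgi3 0.42. Adjusted p-values of the 10 higher genes were 0.102 to 0.119 in edgeR.

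The 20 genes were chosen for a small p and no overlap, so their directions are a description. In the higher genes the differences were 2.73 in Xist-only and 3.21 in Y-only nuclei for C4b, and 2.12 and 2.32 for Bdkrb2. In the lower genes they were -1.06 and -0.72 for Gpr6, and -1.41 and -1.17 for Glra2. All of the 20 were called by DESeq2, with adjusted p-values of at most 3.5e-05. DESeq2 used the same sums from which the genes were chosen, so this is not separate support. For C4b the edgeR adjusted p was 0.50 in Xist-only and 0.29 in Y-only nuclei.

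Marker composition was read from the same sums. In such sums a smaller share of nuclei of a type and less RNA per nucleus cannot be told apart. Markers of medium spiny neurons differed little in sum between ages, while a few marker genes lay lower at 21 months. The 6 markers of the direct pathway (D1) summed to 184, 201, 169 and 204 CPM, and none reached an unadjusted p of 0.05. Their leading genes gave log2 fold changes of 0.12 for Drd1, -0.16 for Tac1, the substance P precursor, and -0.030 for Pdyn, the dynorphin precursor. The indirect-pathway (D2) markers summed to 449, 552, 418 and 480 CPM, and the ages overlapped. Drd2 gave 0.031 and Adora2a, an adenosine receptor, -0.064. Penk, the enkephalin precursor, stood at 167.8, 209, 139.8 and 145 CPM, below both 3-month libraries at 21 months (log2 -0.40, SE 0.12, edgeR adjusted p = 0.203). With Gpr6 it made 2 of 6 indirect-pathway markers lower at an unadjusted p under 0.05, beside the 10.1% of all genes. The count was 1 without 3-month library 2 or either 21-month library.

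Of the 10 markers common to medium spiny neurons, 2 (20%) were lower at an unadjusted p under 0.05 and none higher. The shares of all genes were 10.1% and 8.44%. Ppp1r1b, which encodes the dopamine-regulated phosphatase inhibitor DARPP-32, stood at 78.4, 85.3, 50.9 and 60.6 CPM (log2 -0.55, SE 0.11, edgeR adjusted p = 0.136). Both 21-month libraries lay below both 3-month libraries. Pde10a gave 0.028 and Rgs9, a regulator of G-protein signalling, 0.0096. The median log2 fold change was -0.080 for direct-pathway, -0.077 for indirect-pathway and -0.023 for common markers, and it took the other sign in 2, 1 and 6 of the 17 alternative settings.

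Interneuron markers summed to low levels and the ages overlapped. Cholinergic markers summed to 18.2, 18.8, 13.1 and 24.9 CPM, and the 21-month libraries differed more from each other than the ages did. Chat, choline acetyltransferase, gave 0.45, Slc5a7, the choline transporter, -0.39, and Slc18a3, the vesicular acetylcholine transporter, -0.051. Ecel1, at 2.15, 2.02, 0.628 and 1.31 CPM, was the 1 of 6 cholinergic markers at an unadjusted p under 0.05 (log2 -1.10, SE 0.37), beside 10.1% of all genes lower. The lower count was 0 without either 3-month library and 3 without 21-month library 2. Sst, Npy and Nos1, markers of somatostatin interneurons, gave -0.16, -0.12 and 0.36. Among fast-spiking interneuron markers Pvalb gave -0.36, Pthlh -0.69 and Kit 0.12, and Pthlh stood at 1.35, 1.61, 0.95 and 0.887 CPM. Pthlh was the 1 of 4 at an unadjusted p under 0.05, and none was without either 21-month library. Otof (-0.25), Casz1 (0.14) and Tshz1 (0.19) of eccentric medium spiny neurons did not reach an unadjusted p of 0.05, and the 6 markers of that class summed to 84.6, 82.4, 93.1 and 83.0 CPM.

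**Figure D2:**
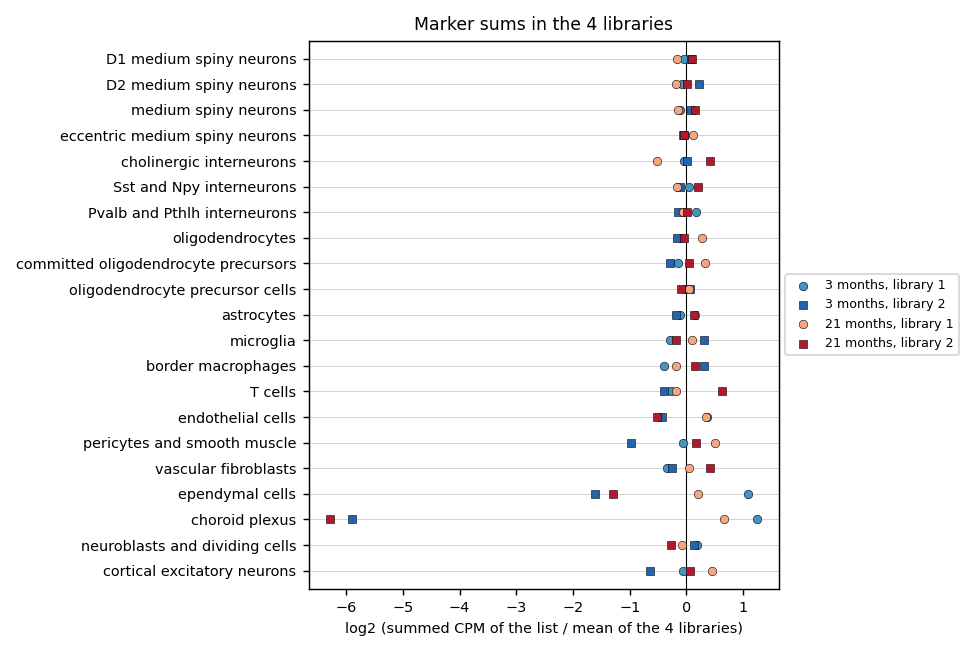
Summed CPM of each marker list in the 4 libraries, as the log2 ratio to the mean of the libraries (0 is the mean); blue is 3 months, red 21 months, circles library 1 and squares library 2. Choroid plexus and ependymal sums part libraries 1 from libraries 2 at both ages, and astrocyte sums are higher in both 21-month libraries.

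Oligodendrocyte and astrocyte markers had medians above 0. The 10 oligodendrocyte markers summed to 853, 811, 1112 and 887 CPM, a log2 ratio of 0.26 that was 0.091 without 21-month library 1 and 0.081 in thinned nuclei. Of the 10, 5 were higher at an unadjusted p under 0.05 (8.44% of all genes were) and none lower. In 7 both 21-month libraries lay above both 3-month libraries, beside 25.0% of all genes. The median log2 fold change was 0.42, and 0.15 without 21-month library 1. The count of 5 was 3 without either 3-month library or without 21-month library 1, and 8 without 21-month library 2. Mbp, myelin basic protein, stood at 259, 241.8, 363 and 329 CPM (log2 0.47, SE 0.086, edgeR adjusted p = 0.135). Mag, myelin-associated glycoprotein, stood at 55.2, 48.0, 84.3 and 69.8 CPM (log2 0.58, SE 0.12), and Opalin, a myelin membrane protein, at 19.6, 21.4, 36.3 and 27.5 CPM (log2 0.63, SE 0.15). In these genes 21-month library 1 was the highest. Mog, myelin oligodendrocyte glycoprotein, gave 0.37.

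The wider list of myelin structure and myelin lipid synthesis, which shares members with the marker list, had 8 of 16 genes higher at an unadjusted p under 0.05 and none lower, beside 8.44% and 10.1% of all genes. Its median was 0.41, and 0.17 without 21-month library 1, when 4 were higher and 2 lower. The higher genes were 4 without 3-month library 2 and 12 without 21-month library 2. Fa2h, which makes hydroxylated myelin lipids, stood at 49.5, 40.7, 75.2 and 63.3 CPM (log2 0.62, SE 0.13). Myrf, the transcription factor of myelination, stood at 10.7, 8.30, 14.2 and 12.2 CPM (log2 0.48, SE 0.15). Both were higher in both 21-month libraries. Omg, oligodendrocyte myelin glycoprotein, was the 1 member below in both, at 9.48, 8.87, 7.56 and 8.17 CPM.

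Committed oligodendrocyte precursor markers split. Gpr17, a receptor of differentiating precursors, stood at 1.15, 1.28, 0.437 and 0.415 CPM (log2 -1.51, SE 0.19, edgeR adjusted p = 0.12), and Neu4 at 2.12, 2.40, 1.27 and 1.63 CPM (log2 -0.64, SE 0.19). Both lay below the 3-month libraries. Bcas1 (0.49), Itpr2 (0.37) and Enpp6 (0.45) lay above them at an unadjusted p under 0.05. Bmp4 gave -0.54. The 3 higher and 2 lower of 6 stand beside 8.44% and 10.1% of all genes. The 3 higher were 1 without 3-month library 2, and the 2 lower were 1 without 3-month library 2 or 21-month library 1. Of the 6 precursor cell markers none reached that p, with -0.40 for Pdgfra, 0.30 for Cspg4 and -0.36 for Vcan.

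The 9 astrocyte markers had a median log2 fold change of 0.44, from 0.20 to 1.05 with 1 library left out. In 3 of them (33.3%) both 21-month libraries lay above, beside 25.0% of all genes, and 6 overlapped between ages. Their summed level was 1442, 1367, 1730 and 1709 CPM (log2 ratio 0.29), without overlap. Most of that sum was Slc4a4, a bicarbonate transporter, at 874.5, 1032, 910.7 and 1090 CPM (log2 0.069). Slc1a3, a glutamate transporter, stood at 84.5, 61.6, 127.5 and 92.2 CPM (log2 0.59, SE 0.22). It was the 1 of 9 markers (11.1%) higher at an unadjusted p under 0.05, near the 8.44% of all genes. Slc1a2, the other main glutamate transporter, stood at 376.6, 218, 563 and 435 CPM (log2 0.75, SE 0.29). At each age library 1 was above library 2 for both genes. The same order held for Aqp4, the water channel of endfeet, at 6.93, 2.86, 9.91 and 6.82 CPM (log2 0.78), for Aldh1l1 (0.59) and for Gja1 (0.37).

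Microglial markers did not separate the ages. All 10 overlapped, and their sums were 100.1, 151, 131 and 108 CPM, with the highest value in 3-month library 2. Csf1r, Cx3cr1 and P2ry12, receptors of resting microglia, gave -0.044, -0.10 and -0.038. The log2 ratio of the sums was -0.072 and became 0.26 without 3-month library 2. Border macrophage markers overlapped as well (Mrc1 -0.39, F13a1 -0.14, Cd163 0.030). Of 6 T cell markers only Trac was tested, at 0.0699, 0.0736, 0.102 and 0.0957 CPM, near 0 in every library.

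Of 6 pericyte markers 4 were higher at an unadjusted p under 0.05, beside 8.44% of all genes. The median was 0.92, and 0.57 without 3-month library 2. Pdgfrb, the growth factor receptor of pericytes, stood at 6.91, 4.79, 12.9 and 9.64 CPM (log2 0.95, SE 0.23, edgeR adjusted p = 0.168). Abcc9, a potassium channel subunit, stood at 2.29, 1.08, 4.11 and 3.78 CPM (log2 1.24, SE 0.37), and Vtn at 4.43, 2.26, 6.62 and 5.68 CPM (log2 0.88, SE 0.34). These did not overlap between ages, while Rgs5 (-0.087) and Acta2 (-0.46) did. Kcnj8, another channel subunit, gave 1.09. The count of 4 was 0 without 21-month library 1, 1 without 21-month library 2 and 3 without 3-month library 2. Endothelial markers parted by library number, with sums of 47.5, 27.5, 47.0 and 25.6 CPM. Cldn5, the tight junction gene, gave -0.065, Pecam1 -0.11 and Flt1 -0.083, and Tek, the angiopoietin receptor, was the 1 marker at an unadjusted p under 0.05 (0.22), and none was higher at that p with any 1 library left out. Without 21-month library 1, 1 was lower. Among fibroblast markers Dcn gave 0.47, Col1a1 0.65, Col1a2 -0.44 and Lum 0.60. Lum was the 1 of 5 at an unadjusted p under 0.05, against 3 without 3-month library 1 and 0 without 21-month library 2.

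Markers of dividing and immature cells summed to 43.2, 41.7, 36.4 and 31.4 CPM. Sox11, a factor of immature neurons, stood at 9.91, 7.61, 6.46 and 5.29 CPM (log2 -0.57, SE 0.18) and was the 1 of 6 (16.7%) at an unadjusted p under 0.05, beside 10.1% of all genes lower. The count was 2 without 21-month library 1 and 0 without 21-month library 2. Mki67 gave -0.34, Top2a -0.69, Dcx -0.25 and Dlx1 0.25. Among cortical markers Slc17a7 gave 1.78 and Tbr1 0.48, with overlap between ages in each. Ependymal Foxj1 (-0.75) and choroid plexus Ttr (-0.58) had SEs of 0.50 and 2.92, with the libraries of each age apart. The next markers of these lists were Ccdc153 (-0.65), Tmem212 (-1.50), Kl (-0.55) and Folr1 (-0.41).

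Most genes listed with the chaperones of the endoplasmic reticulum (ER) lay lower at 21 months. These chaperones fold secreted and membrane proteins, and their genes are known targets of the unfolded protein response. The list also holds Syvn1, which is not a chaperone but a ubiquitin ligase. Of 22 members, 14 (63.6%) were lower at an unadjusted p under 0.05 and none higher, beside 10.1% of all genes, and 16 (72.7%) lay below in both 21-month libraries, beside 26.7% of all genes. Their median log2 fold change was -0.33, from -0.38 to -0.30 with 1 library left out, and 10 to 12 members were then lower at that p. The smallest adjusted p among them was 0.113.

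Many of these genes share a known promoter motif, the ER stress element, which is CCAAT and CCACG with 9 bases between them. Both strands of RefSeq promoters (GRCm38.p6, 250 bases before to 50 after a start) were searched for these letters. They occurred in 8 of the 19 members matched by symbol (42.1%), and in 37 of 27025 genes with a promoter in the table (0.137%). The next lines show the 250 bases before the start of 4 members that hold it and that lay lower at 21 months, 5′ to 3′ on the strand of the gene with the motif in capitals. They are chr2:34771840-34772089 (plus strand), chr10:86705445-86705694 (minus), chr19:6046326-6046575 (plus) and chr12:17266339-17266588 (plus).
Hspa5: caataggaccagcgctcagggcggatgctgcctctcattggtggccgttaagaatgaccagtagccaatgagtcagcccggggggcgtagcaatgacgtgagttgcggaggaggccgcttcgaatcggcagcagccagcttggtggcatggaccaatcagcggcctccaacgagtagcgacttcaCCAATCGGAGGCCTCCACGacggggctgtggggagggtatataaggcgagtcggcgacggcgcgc
Hsp90b1: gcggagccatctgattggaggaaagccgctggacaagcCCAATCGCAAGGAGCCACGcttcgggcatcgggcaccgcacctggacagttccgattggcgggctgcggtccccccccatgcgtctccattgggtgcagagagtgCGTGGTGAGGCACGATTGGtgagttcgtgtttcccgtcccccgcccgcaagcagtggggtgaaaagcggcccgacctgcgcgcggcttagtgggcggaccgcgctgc
Syvn1: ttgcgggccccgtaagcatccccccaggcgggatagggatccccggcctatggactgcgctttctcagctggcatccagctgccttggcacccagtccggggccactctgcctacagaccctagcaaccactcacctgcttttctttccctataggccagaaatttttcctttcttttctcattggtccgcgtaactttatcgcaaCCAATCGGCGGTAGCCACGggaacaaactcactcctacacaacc
Pdia6: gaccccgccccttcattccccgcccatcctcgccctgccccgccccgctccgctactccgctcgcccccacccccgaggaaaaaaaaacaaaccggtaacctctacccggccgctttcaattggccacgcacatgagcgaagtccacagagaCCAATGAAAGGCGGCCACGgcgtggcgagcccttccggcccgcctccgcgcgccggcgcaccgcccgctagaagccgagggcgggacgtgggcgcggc
In Hspa5 the motif begins 65 bases before the start, and Hsp90b1 has 2 matches, 1 on each strand. A match describes these letters and is not evidence of a bound factor.

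Hspa5, which encodes the main ER chaperone BiP, stood at 41.6, 39.8, 26.8 and 29.1 CPM (log2 -0.54, SE 0.072, edgeR adjusted p = 0.12). Hsp90b1, the ER member of the HSP90 family, stood at 77.8, 71.9, 54.4 and 55.5 CPM (log2 -0.45, SE 0.069). Syvn1, a ubiquitin ligase of ER-associated degradation, stood at 7.89, 7.99, 4.11 and 3.93 CPM (log2 -0.98, SE 0.094). In all 3 the ages were separate. Pdia6, a disulfide isomerase, stood at 29.98, 26.9, 20.6 and 19.5 CPM (log2 -0.50, SE 0.080). Creld2, at 4.18, 4.20, 2.30 and 2.47 CPM, gave -0.81 (SE 0.12), and Calr, calreticulin, at 33.3, 28.4, 20.8 and 22.7 CPM, gave -0.50 (SE 0.10). All of these carry the motif, as do Canx (-0.16) and Dnajc3 (-0.0075), which did not reach an unadjusted p of 0.05. With 14 members lower at that p and the motif found in 8, members without a match found were lower too. Whether the difference goes with the motif was not tested. Xbp1, a transcription factor of the unfolded protein response, stood at 19.8, 19.9, 13.2 and 14.3 CPM (log2 -0.53, SE 0.068), while Atf6, a sensor of that response, overlapped between ages.

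**Figure D3:**
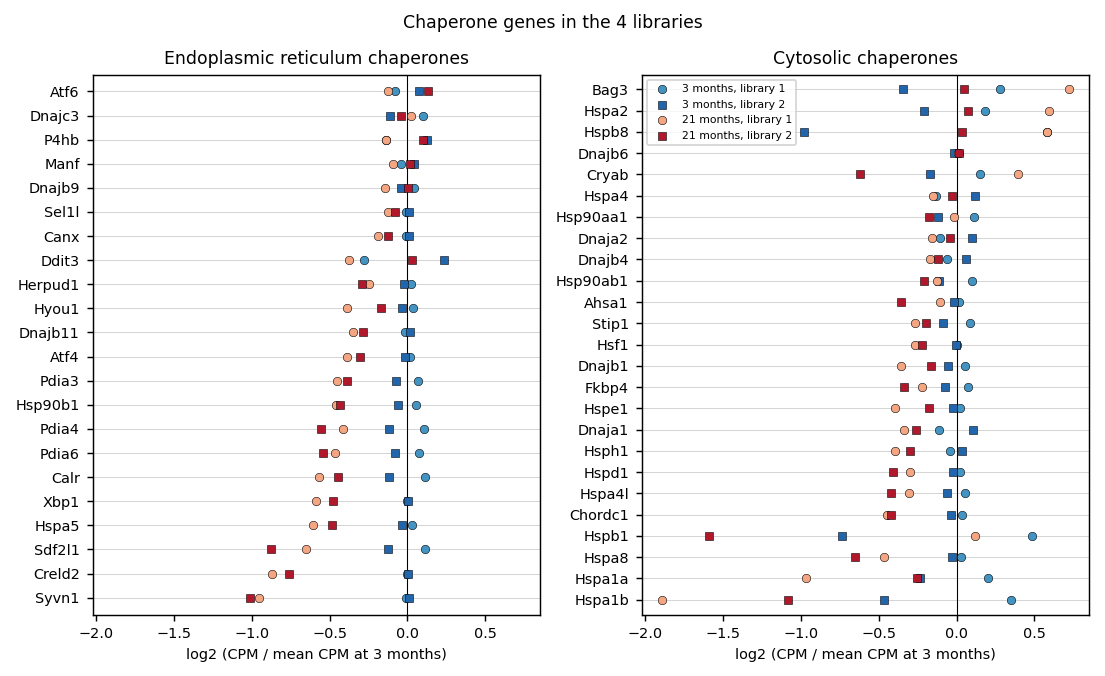
CPM of the chaperone genes in each library as the log2 ratio to the mean of the 3-month libraries (0 is that mean), with blue for 3 and red for 21 months. Red points of most ER genes lie left of both blue points, while Hspb1, Hspb8, Cryab and Bag3 in the right panel do not separate the ages.

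Many chaperones of the cytosol and mitochondria lay lower as well. Of 25, 11 (44%) were lower at an unadjusted p under 0.05 and none higher, beside 10.1% of all genes, and 16 (64%) lay below in both 21-month libraries, beside 26.7%. The median was -0.24, and -0.039 in nuclei with Xist UMIs only. The count of 11 was 6 without 3-month library 1 and 7 without either 21-month library. Hspa8, the constitutive HSP70, stood at 89.1, 85.6, 63.3 and 55.7 CPM (log2 -0.55, SE 0.085), and Chordc1, an HSP90 co-chaperone, at 51.4, 48.8, 36.8 and 37.4 CPM (log2 -0.43, SE 0.063). Hsph1, at 43.5, 45.9, 34.1 and 36.3 CPM, gave -0.34. The ages were separate in these genes. The heat shock element, searched on both strands as GAA, TTC and GAA with 2 bases between neighbours, was in 5 of 20 matched members (25%) and 0.662% of all genes. Among the 5, Chordc1, Hspd1 (-0.35), Hsph1 and Hspe1 (-0.28) were lower at an unadjusted p under 0.05 and Dnajb6 (0.013) was not. The 11 lower members thus include genes in which no match was found, and whether the difference goes with this element was not tested. The promoters of Hspd1 and Hspe1 overlap on opposite strands and hold the same matched bases, which were counted for both genes.

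Other families of short housekeeping genes had medians below 0. Of 80 nuclear genes of oxidative phosphorylation, 32 (40%) were lower at an unadjusted p under 0.05 and none higher, beside 10.1% of all genes, and 50 (62.5%) lay below in both 21-month libraries, beside 26.7%. Their median log2 fold change was -0.16 and their median span 7370 bases. The count of 32 was 18 without 3-month library 1, 21 without 21-month library 1 and 20 without 21-month library 2. Ndufa1, a complex I subunit, stood at 9.67, 9.63, 5.66 and 5.78 CPM (log2 -0.75, SE 0.082, edgeR adjusted p = 0.114), and Cox6c, a complex IV subunit, at 31.2, 29.4, 21.0 and 20.9 CPM (log2 -0.53, SE 0.064). Both separated the ages with little spread within them. The 13 genes encoded in mitochondria summed to 37.4, 31.7, 33.2 and 21.9 CPM, which overlapped, and 1 of them, mt-Nd3 (-0.65), was at an unadjusted p under 0.05. The count of lower genes was 5 without 21-month library 1 and 0 with any other library left out. The median was -0.31, and -0.65 without 21-month library 1, -0.51 without 3-month library 2 and -0.12 without 3-month library 1.

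Of 80 ribosomal protein genes 21 (26.2%) were lower and 2 higher at an unadjusted p under 0.05, beside 10.1% and 8.44% of all genes. Their median was -0.097, and -0.023 in nuclei with Y-linked UMIs only, and 11 were lower without 3-month library 1 and 12 without 21-month library 2. Rps28 stood at 11.99, 11.04, 7.95 and 7.32 CPM (log2 -0.59, SE 0.093), whereas Rpl10 stood at 8.69, 9.92, 12.8 and 12.7 CPM (log2 0.45, SE 0.093). These genes have many pseudogenes, and reads shared with those can move their counts. Of 39 proteasome subunit genes, 5 (12.8%) were lower and none higher at that p, near the 10.1% of all genes, while 25 (64.1%) lay below in both 21-month libraries, beside 26.7%. The count of 5 was 1 without 3-month library 2 or 21-month library 1, 2 without 21-month library 2 and 3 without 3-month library 1. Psmd2 (-0.39) had the smallest p.

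Splicing factors had 17 of 52 (32.7%) lower and none higher at an unadjusted p under 0.05, beside 10.1% of all genes. Their median was -0.097, and -0.043 with library totals and no TMM factor. The count of 17 was 11 without 3-month library 2 or 21-month library 1 and 8 without 21-month library 2. Beside Snrpf, Srsf9 stood at 28.3, 26.6, 14.2 and 15.9 CPM (log2 -0.86, SE 0.085, edgeR adjusted p = 0.114) and Srsf5 at 133.6, 131.7, 88.6 and 80.9 CPM (log2 -0.65, SE 0.073). Hnrnph1 stood at 73.3, 74.4, 52.7 and 48.6 CPM (log2 -0.54, SE 0.069). Srsf proteins and hnRNPs bind RNA and steer the choice of splice sites. All 4 genes lay lower in both 21-month libraries. Of 47 histone genes tested (80 in the files), 16 (34.0%) were lower and none higher at that p, with Hist3h2a at 8.80, 9.67, 5.04 and 5.55 CPM (log2 -0.80, SE 0.10). Histone genes are near-identical copies, so reads can be split between them, and the count of 16 was 6 to 10 with any 1 library left out. Tubulin genes had 1 higher and 3 (20%) lower of 15, and none lower without 3-month library 1 or 21-month library 2.

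**Figure D4:**
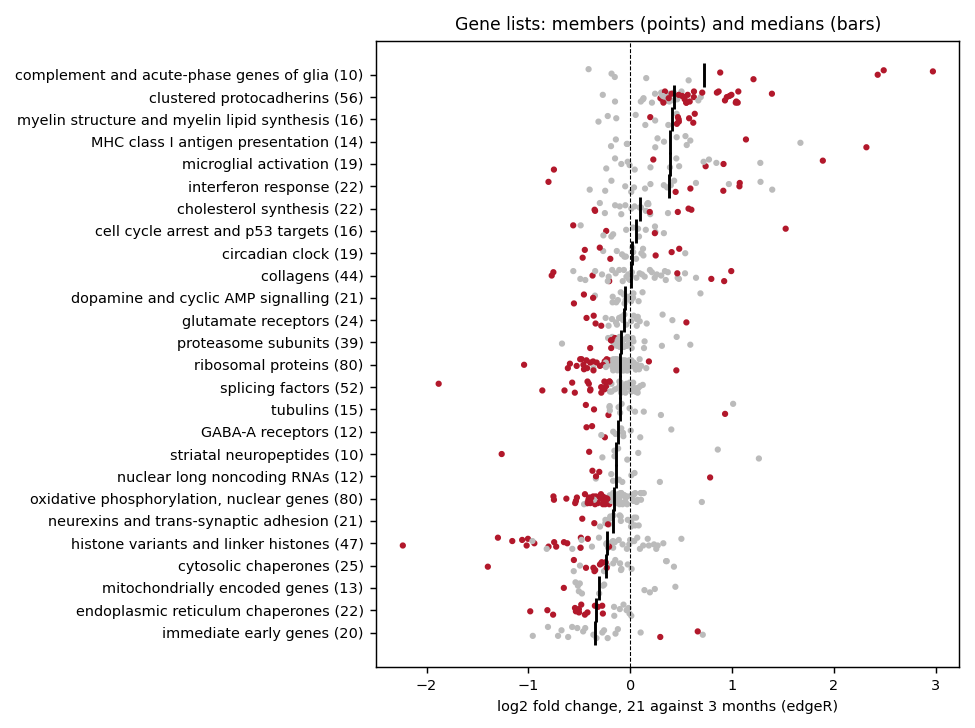
Log2 fold change of the tested members (points; red at an unadjusted p under 0.05) and the median (black bar) of each function and family list, with the number tested in brackets and the median of all genes as a dashed line. Complement, protocadherin and myelin medians lie furthest right, and immediate early and ER chaperone medians furthest left.

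Clustered protocadherins, cell adhesion proteins that label neurons by combination, lay higher at 21 months. Of 56 genes, 31 (55.4%) were higher at an unadjusted p under 0.05 and none lower, beside 8.44% of all genes, and 52 lay above in both 21-month libraries, beside 25.0% of all genes. The summed level was 119, 126, 160 and 168 CPM, and the median log2 fold change was 0.43 (0.41 to 0.48 with 1 library left out). The count of 31 was 17 without either 3-month library, 18 without 21-month library 1 and 13 without 21-month library 2. By cluster, 5 of 14 alpha, 13 of 21 beta and 13 of 21 gamma genes were higher at that p, with medians of 0.38, 0.56 and 0.35. Pcdhb14 stood at 5.26, 6.87, 11.2 and 12.7 CPM (log2 0.97, SE 0.16) and Pcdhb7 at 2.94, 2.81, 5.79 and 6.03 CPM. Genes of the alpha and of the gamma cluster share their last exons, so the split of reads between them is uncertain.

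Complement and acute-phase genes of glia had 5 of 10 higher at an unadjusted p under 0.05 and none lower, beside 8.44% and 10.1% of all genes. The median was 0.73, from 0.48 without 21-month library 1 to 1.59 without 3-month library 1. The count was 2 without 21-month library 1, and 3 without 21-month library 2 or 3-month library 2. Besides C4b, Gfap, the astrocyte filament gene, stood at 1.46, 0.186, 5.95 and 3.11 CPM (log2 2.49, SE 0.94), and Serpina3n, a secreted protease inhibitor, at 0.105, 0.0637, 0.451 and 0.447 CPM (log2 2.43, SE 0.34). Osmr, the oncostatin M receptor, stood at 0.88, 0.51, 1.91 and 1.30 CPM (log2 1.21, SE 0.35). All were higher in both 21-month libraries, and library 1 was above library 2 at each age. The same order held in 8 of the 9 astrocyte markers, with Slc4a4 in the opposite order. The part of astrocyte number in these values was not tested. C1qa (-0.18), C1qb (-0.15) and C1qc (-0.41), the microglial complement genes that are also among the microglial markers, overlapped between ages.

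Among microglial activation genes 4 of 19 (21.1%) were higher and 1 (5.26%) lower at an unadjusted p under 0.05, beside 8.44% and 10.1% of all genes. The median was 0.39, and 0.60 without 21-month library 2 and 0.26 without 21-month library 1. By count 8 were higher without 3-month library 1 and 2 without 3-month or 21-month library 2. Csf1, a growth factor for microglia, stood at 6.47, 5.502, 11.4 and 8.60 CPM (log2 0.74, SE 0.17), and Axl, a phagocytic receptor, at 2.12, 1.22, 3.25 and 3.04 CPM (log2 0.92, SE 0.29). Itgax, an integrin of activated microglia, stood near 0 at 0.0489, 0.0392, 0.109 and 0.217 CPM. These lay higher in both 21-month libraries, while Cst7 (-0.75) lay lower. Of 22 interferon response genes 5 (22.7%) were higher and 1 lower at that p. The median was 0.38, and 0.032 without 21-month library 1 and 0.18 without 3-month library 2. By count 1 was higher without 3-month library 2 or 21-month library 1 and 10 without 21-month library 2. Ifit2, an interferon-induced gene, stood at 0.748, 0.785, 1.67 and 1.56 CPM (log2 1.07, SE 0.17), and Irf9, a factor of interferon signalling, at 7.30, 6.86, 4.30 and 3.82 CPM (log2 -0.80, SE 0.11). The 2 genes thus lay on opposite sides. Of 14 genes of MHC class I presentation 2 (14.3%) were higher at that p, against 1 without 3-month library 2 or 21-month library 1 and 3 without 21-month library 2. Their median was 0.39, and -0.028 without 21-month library 1. The 2 were Nlrc5, their activator (1.14), and H2-Q7 (2.32), whose reads near-identical H2-Q copies can share.

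Immediate early genes, which neurons switch on within minutes of activity, varied mainly through 3-month library 2. Fos stood at 4.56, 9.90, 4.41 and 4.67 CPM and Nr4a1 at 33.4, 65.5, 27.8 and 32.6 CPM, each highest in that library. None of 20 was lower and 2 (10%) were higher at an unadjusted p under 0.05, beside 10.1% and 8.44% of all genes. The list median was -0.35, and -0.72 without 3-month library 1 and 0.030 without 3-month library 2. Jun stood at 4.45, 4.64, 7.15 and 7.24 CPM (log2 0.66, SE 0.094, edgeR adjusted p = 0.122) and Jund at 12.6, 13.1, 15.6 and 15.9 CPM (log2 0.29, SE 0.067). Both were higher in both 21-month libraries.

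Clock genes had 3 of 19 (15.8%) higher and 4 (21.1%) lower at an unadjusted p under 0.05, beside 8.44% and 10.1% of all genes. The 4 lower were 2 without 3-month library 2 or 21-month library 1. Dbp, an output gene of the clock, stood at 25.9, 26.3, 17.4 and 20.4 CPM (log2 -0.47, SE 0.095), and Arntl, its positive arm, at 135, 146, 93.8 and 112.8 CPM (log2 -0.45, SE 0.11). Per3, of the negative arm, stood at 26.2, 23.5, 31.2 and 34.6 CPM (log2 0.41, SE 0.092). These 3 did not overlap between ages. The hour at which tissue was taken is not given in the labels. Of 22 cholesterol synthesis genes 4 (18.2%) were higher and 2 (9.09%) lower at that p, with a median of 0.099, and 1 was higher without 21-month library 2 and none lower without either 21-month library. Of 16 cell cycle arrest and p53 target genes 2 were higher and 2 lower, with none higher without 3-month library 1 or 21-month library 2 and at most 1 lower with any 1 library left out. Among the higher genes was Cdkn2a at 0.0489, 0.103, 0.171 and 0.281 CPM (log2 1.53, SE 0.49).

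In dopamine and cyclic AMP signalling 3 of 21 (14.3%) were lower and none higher at an unadjusted p under 0.05, near the 10.1% of all genes, and the count was 1 without 21-month library 1 and 2 without 3-month library 2. They were Ppp1r1b, Arpp19 (-0.37) and Ppp1ca (-0.46), each a gene of protein phosphatase control. Among the striatal neuropeptides Nts, neurotensin, stood at 1.11, 0.853, 0.485 and 0.332 CPM (log2 -1.26, SE 0.29), and with Penk it made 2 of 10 lower, or 1 without 3-month library 2 or 21-month library 1. Neat1, the RNA that builds paraspeckles, stood at 97.7, 97.1, 182 and 153 CPM (log2 0.78, SE 0.10, edgeR adjusted p = 0.12). Snhg14 (-0.37), Rian (-0.30) and Mirg (-0.34), imprinted noncoding RNAs, were lower at that p, 3 of 12 noncoding RNAs listed, and 1 of 12 was without 21-month library 1. All 4 were separate between ages.

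Synaptic receptor and adhesion genes, which are long and abundant in nuclei, had lower sums at 21 months. The 24 glutamate receptor genes summed to 20725, 22081, 18861 and 18807 CPM, and 4 (16.7%) were lower and 1 higher at an unadjusted p under 0.05, beside 10.1% and 8.44% of all genes. The 4 were 1 without 21-month library 2 and 2 without 3-month library 2. Gria2, an AMPA receptor subunit, stood at 1490, 1638, 1154 and 1168 CPM (log2 -0.43, SE 0.091, edgeR adjusted p = 0.145). The 12 GABA-A receptor genes summed to 4451, 4814, 4042 and 4105 CPM, with Gabra5 at 31.4, 31.8, 23.8 and 23.2 CPM (log2 -0.43, SE 0.059). Of these 3 were lower at that p, and 1 without 3-month library 2 or 21-month library 1. The 21 neurexins and their partners summed to 42193, 44933, 38365 and 37899 CPM, with 3 (14.3%) lower and none higher, near the 10.1% of all genes. The 3 were 1 without 3-month library 1 or either 21-month library and 2 without 3-month library 2. Of these, Nlgn2, a neuroligin of inhibitory synapses, gave -0.47 and Cntnap2 -0.35. In all 3 lists the sums of the ages did not overlap, and the medians of members were -0.064, -0.12 and -0.16. The glutamate receptor median was 0.014 in nuclei thinned to 2000 UMIs, and the GABA-A receptor median was -0.038 in Xist-only nuclei. Without 3-month library 1 these medians were -0.029 and -0.20. The neurexin median was -0.097 without 21-month library 2 and -0.10 without 3-month library 2. Of 44 collagen genes 4 (9.09%) were higher and 4 lower at that p, near the shares of all genes, with 8 higher without 3-month library 1 and 1 without 3-month library 2.

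Across genes, longer genes had slightly higher log2 fold changes. Spearman's rho with genomic span was 0.087 over 21817 genes, which are not independent, so no p is given. Among the 4 pairs of a 21-month and a 3-month library, which share libraries, rho was 0.057 to 0.12. The pairs within an age gave 0.044 at 3 months and -0.070 at 21 months (library 2 minus 1). The latter is larger in size than 1 of the 4 pairs between ages. With summed exon length in place of span rho was -0.013. It was 0.049 for genes under 1 CPM, 0.25 from 1 to 10 CPM, 0.27 from 10 to 100 CPM and 0.14 above, and 0.15 in protein-coding genes. With genes in 3 equal groups by GC content it was 0.034 in the lowest, 0.071 in the middle and 0.18 in the highest group. Span itself went with mean CPM (rho 0.49) and with GC content (-0.23), and the part of these and of depth in the trend was not tested. The deposited files were made with Cell Ranger 7.0.0 for 3-month library 2 and 6.1.2 for the others, per their headers.

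In the tenth of genes with the shortest span (up to 3174 bases) the median log2 fold change was -0.039, and 13.4% were lower and 4.63% higher at an unadjusted p under 0.05. In the tenth with the longest span (from 120154 bases) the median was 0.016, and 6.69% were lower and 11.8% higher. Shares of all genes were 10.1% and 8.44%. The median span was 13622 bases for the lower genes and 31548 for the higher genes, against 20312 for all. Weighted by UMIs the picture differed, because genes of 300 kb or more held 38.1%, 38.5%, 37.2% and 37.1% of UMIs. That share was lower in both 21-month libraries. It was not so after thinning nuclei to 2000 UMIs, which also left out nuclei below that depth (34.3%, 34.8%, 33.0% and 34.5%). Genes under 10 kb held 11.1%, 11.5%, 11.6% and 11.8% of UMIs. The median of the bin of longest genes, 0.016, was smaller in size than that of the within-age pair at 21 months in the same genes (-0.028). In the bin of shortest genes the median of -0.039 was also smaller in size than that of the within-age pair at 3 months (-0.043). The pair within 21 months gave 0.022 there (library 2 minus 1 in each pair).

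**Figure D5:**
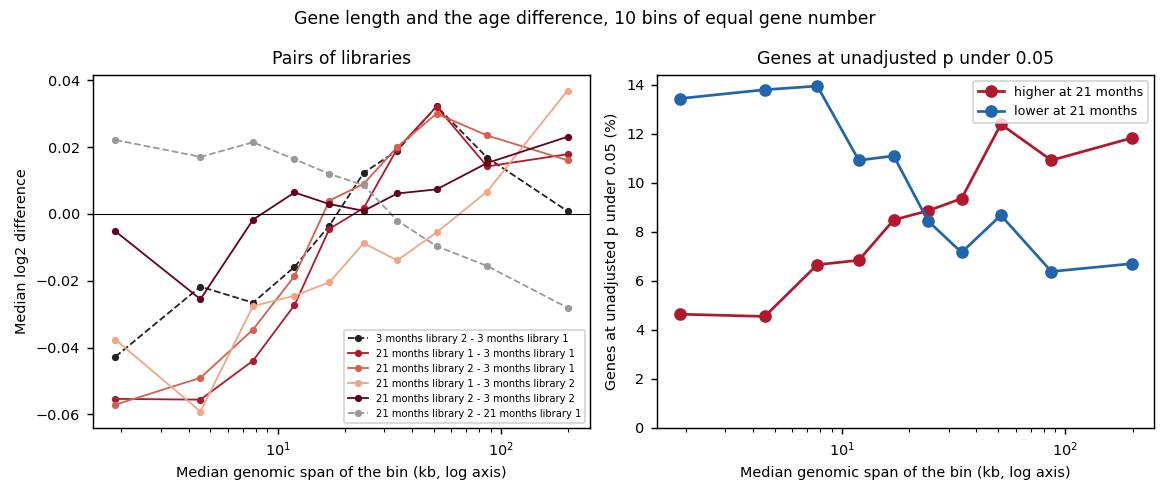
Left, the median log2 difference of 6 pairs of libraries in 10 bins of genes by genomic span (log axis); solid lines are pairs between ages and dashed lines pairs within an age. Right, the share of genes at an unadjusted p under 0.05 that were higher (red) or lower (blue) at 21 months; lower genes fall from 13.4% in the shortest bin to 6.69% in the longest.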

How the data were processed

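Single-nucleus RNA libraries of the caudate putamen (2 at 3 months, 2 at 21 months) were read as raw UMI counts per gene and barcode, as the authors deposited them, with no normalization. The submitters' processing notes name Cell Ranger 4.0.0 and mm10, and per the file headers the versions were 6.1.2 and, for 3-month library 2, 7.0.0. Whether intronic reads were counted is not given in the sources used here. Barcodes with at least 500 genes were kept, which removed 60, 53, 194 and 169, and no nucleus exceeded 5% mitochondrial UMIs. Doublets were not called; leaving out the 10% of nuclei with most UMIs was an alternative.

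Counts were summed per library and tested with edgeR 4.0.16 (R 4.3.3; TMM, filterByExpr, robust quasi-likelihood, Benjamini-Hochberg over all genes tested) or, as an alternative, DESeq2 1.42.0. Depth was 141523627 to 214112996 UMIs per library. Spans came from GENCODE vM21 on GRCm38, which held 99.85% of 32285 gene identifiers. Summaries were made with Python 3.11.15. The test was tested on simulated data with known changes in well-counted genes. It recovered 90% of changes of log2 1 in size and 9% of those of 0.5, with 4 false calls. The simulated spread was a fixed setting and was not fitted to these libraries.

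The genes, lists and tests were chosen with earlier results of these data known. Named were the 10 genes a direction with the smallest p, a mean of at least 1 CPM and no overlap between ages, without predicted gene models (no gene passed, so none is a call), the first 3 genes of each marker list, and list members with the smallest p, chosen after their values were seen. Matches of 3 gene families were corrected for kinases, assembly factors and tubulin complex proteins that share their symbols. Alternatives covered scaling, filters, the test, nuclei kept, depth per nucleus, nuclei with Xist or Y-linked UMIs only and each library left out. Removing each library's length trend was chosen after seeing the data. A few genes that this rule names are not reported here.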

Additional observations from a re-analysis of the deposited data

How the results depend on the processing

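Calls depended on the test and the fit. Where the edgeR fit called 0 genes, DESeq2 called 1244, a fit with no filter on low counts 58 and a fit on all 8 libraries 37. The fit with a replicate block (numbers 1 and 2 of the titles) called 3261 and put 6589 genes at an unadjusted p under 0.05. The labels do not say what the numbers share. Replicate 1 minus replicate 2 correlated at 0.58 between ages across genes, and no other pairing was tried. Of the block's calls 80.3% were among the 4040 genes at an unadjusted p under 0.05, and all DESeq2 calls were. With 0 calls the share of higher calls had no value, and the split at unadjusted p was used. That count was 1988 in thinned nuclei, 1542 in Xist-only nuclei, 2659 in Y-only nuclei and 2213 to 3516 with 1 library left out (2328 without 3-month library 2, 2213 and 2520 without 21-month library 1 or 2).

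The length trend of 0.087 was 0.040 with no filter, 0.13 in thinned nuclei, 0.18 in Xist-only nuclei, 0.058 in Y-only nuclei, 0.19 in genes of at least 10 CPM, and 0.059 to 0.10 with 1 library left out. It was -0.012 with each library's length trend removed, which that step itself brings about, and -0.013 with exon length. The log2 ratio of oligodendrocyte sums (0.26) was 0.081 in thinned and 0.072 in Xist-only nuclei and 0.091 to 0.42 with 1 library left out. That of astrocyte sums (0.29) was 0.22 in Xist-only and 0.39 in Y-only nuclei. That of microglial sums (-0.072) was -0.40 in thinned nuclei and -0.34 to 0.26 with 1 library left out. The cause of these shifts was not tested. The remaining values of the length trend and of these sums moved by less than their spread. No spread was computed for the gene counts. With 2 libraries an age the number of libraries limits the precision. Leaving out 1 library leaves a lone sample that is assumed to vary like the others.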
